A study of Homo sapiens with 4 samples.

Results

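The set described here comprises 40 genes that encode nuclear receptors and their coregulators, of 19821 protein-coding genes that could be placed on the genome. The members were taken as a named list: 35 receptors and 5 coregulators, sorted into 11 roles by ligand or function. Peaks of γH2AX were read at each gene in HepG2 cells, an established line from a human liver cancer. γH2AX is the phosphorylated form of the histone variant H2AX and marks chromatin around DNA double-strand breaks. CUT&Tag, the assay used, tethers a transposase to the bound antibody, so that nearby DNA is cut and tagged for sequencing. The samples compared were mock-treated cells (labelled HEPG2-DMSO) and lipid-overloaded cells (labelled HEPG2-PAOA), both in the same medium and both with the γH2AX antibody. Each condition was 1 library from 100000 cells. The 2 samples with control IgG were not analysed here, and the labels name no agent, dose or time behind PAOA. The question the design poses is where γH2AX lies in the genome with and without lipid overload.

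Nuclear receptors are transcription factors whose activity is set by small lipophilic ligands. In hepatocytes the PPARs bind fatty acids, the liver X receptors (NR1H2, NR1H3) bind oxysterols and the farnesoid X receptor (NR1H4) binds bile acids, and each of these pairs with a retinoid X receptor (RXRA, RXRB or RXRG) on DNA. Bound receptors exchange corepressors such as NCOR1 for coactivators such as the NCOA proteins and PPARGC1A, and through them control fatty acid oxidation, cholesterol efflux, lipid synthesis and bile acid production.

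There were 8542 peaks in the mock library and 27296 after lipid overload. The median peak had 5 fragments over its summit in mock (range 3 to 234) and 9 in lipid overload (range 4 to 286). From the genome-wide background, the lipid-overload library held 2.62 times as many fragments. With 1 library per condition there was no replicate check, so no difference below was tested, and each 95% interval covers counting error only. A list of peaks is no measure of cell type, and none of 6 hepatocyte marker genes (such as ALB and APOB) had a peak within 1 kb of a gene end in either list. One of them, SERPINA1, had a lipid-overload peak of 6 fragments at a listed start inside the gene.

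Peaks at the ends of member genes were about as common as at other genes. A gene-end peak is one that reaches within 1 kb of either end of the gene. In mock, 5 of the 40 members had one (12.5%), beside 13.4% of all coding genes. These were NR1D2, NR1H3, ESRRA, NR6A1 and NCOR1. In lipid overload, 19 of 40 had one (47.5%), beside 43.4% of all coding genes. The 5 members marked in mock were marked in lipid overload too (12.1% of all coding genes were marked in both). The other 14 members (35%) were marked in lipid overload only, against 31.4% of all coding genes. No member was marked in mock only, a class that held 1.34% of coding genes. With the lipid-overload list shortened to the 8542 best-ranked peaks, the length of the mock list, 13 members kept a gene-end peak (32.5%, against 25.9%) and 9 were marked in lipid overload only (22.5%, against 15.9%). In mock, windows of 500 bp gave 3 members (7.5%, against 11.5%) and windows of 3 kb gave 8 (20%, against 17%). The members' shares thus lay near the background in both libraries.

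Peaks inside member genes, away from both ends, were more frequent than at coding genes as a whole. They lay in 12 of 40 members in mock (30%, against 12.8% of coding genes). In lipid overload they lay in 22 of 40 (55%, against 27.8%). Peaks at starts inside the gene count as internal: RARA, PPARG, NR1H3, RXRA and NR2F2 each had one in lipid overload. At PPARG, NR1H3 and NR2F2 it was the only internal peak in that library. The part of such starts in these shares was not tested. Members were also longer, with a median of 58.4 kb beside 24.5 kb for all coding genes, so shares were read within classes of gene length. Among the 10 members of up to 20 kb, 3 had an internal lipid-overload peak (30%, against 12.2% of coding genes of that length). Of the 15 members between 20 and 100 kb, 9 had one (60%, against 35.7%), and of the 15 longer members, 10 did (66.7%, against 50.8%). In mock the corresponding shares were 10%, 40% and 33.3% of members, against 3.67%, 14.9% and 31.9% of coding genes, so that the longest class lay near its background. At equal list length, 11 members kept an internal lipid-overload peak (27.5%, against 9.39% of coding genes). At that length the lipid-overload share was no higher than in mock, both in members (27.5% and 30%) and over all coding genes (9.39% and 12.8%). With lipid-overload peaks of at least 8 fragments, a cut set by mock depth, 13 members had an internal one (32.5%, against 17.1% of coding genes). With a −log10 q of at least 5, internal peaks were left in 5 members in mock (12.5%, against 1.87% of coding genes) and 12 in lipid overload (30%, against 11.8%).

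**Figure D1:**
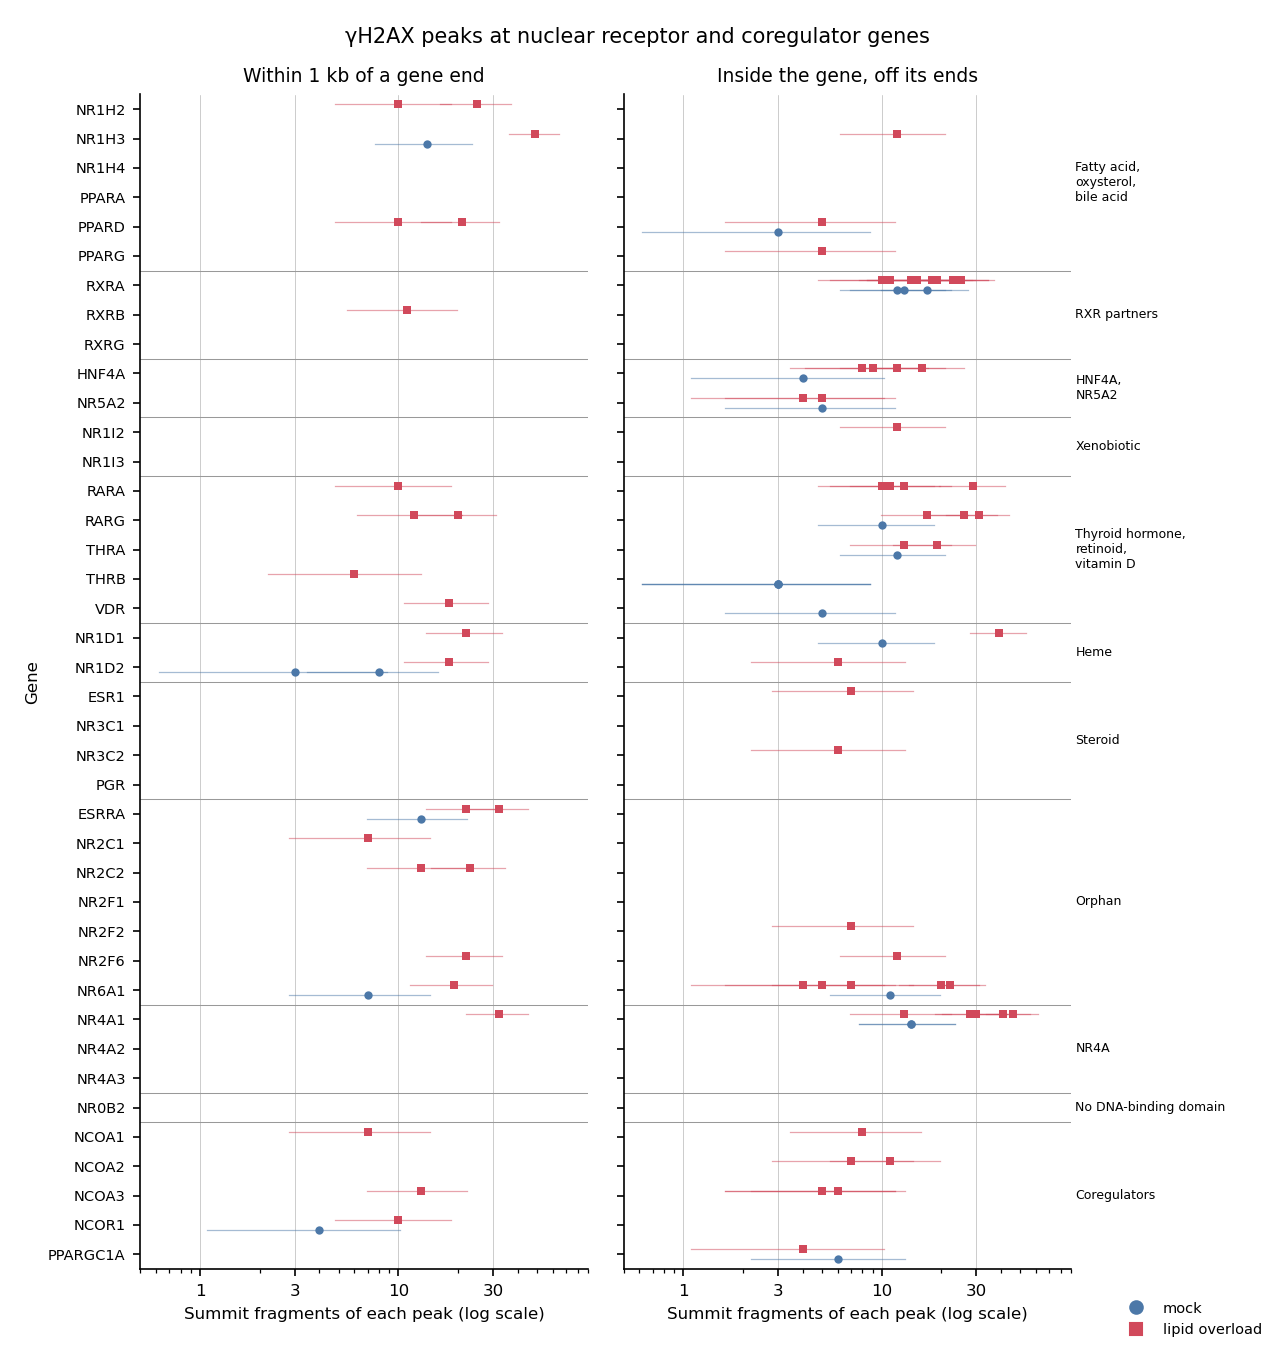
Fragments over the summit of each γH2AX peak (log scale) at the 40 members, grouped by role, in mock (circles) and lipid overload (squares). Bars are exact Poisson 95% intervals covering counting error only, equal values overlie each other, and a row without a mark has no peak in either list. The lipid-overload peaks reach 49 fragments at a gene end (NR1H3) and 46 inside a gene (NR4A1).

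**Figure D2:**
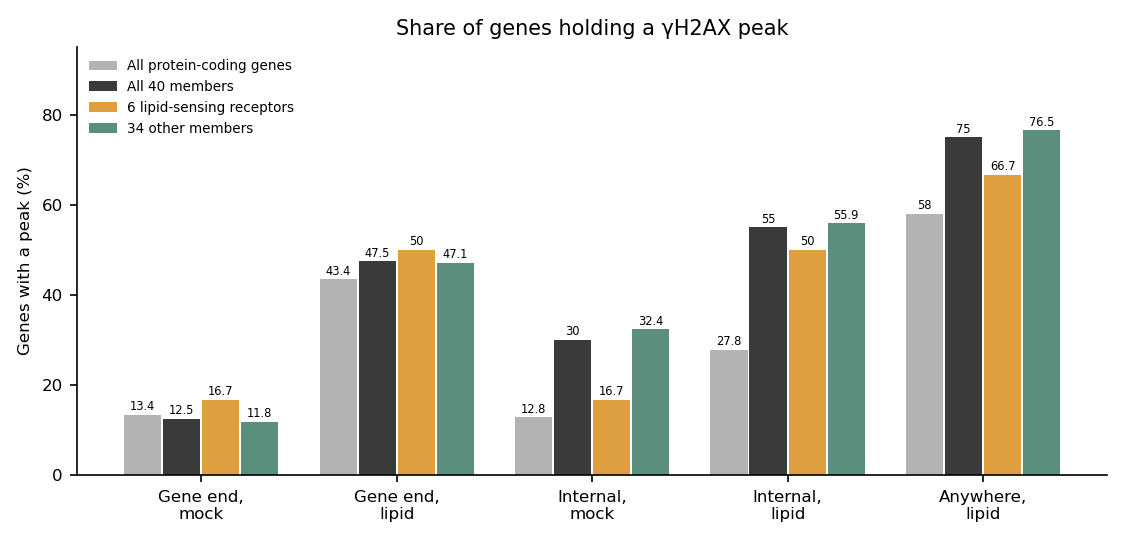
Share of genes (%) with a peak at a gene end, inside the gene or in either place, in mock or lipid overload. Bars give all 19821 protein-coding genes, the 40 members, the 6 lipid-sensing receptors and the 34 other members. Gene-end shares of members lie close to those of all coding genes (47.5% and 43.4% in lipid overload), while internal shares lie higher (55% and 27.8%).

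Without regard to gene length, a peak in either place was present at 16 members in mock (40%, against 24.2% of coding genes). In lipid overload 30 members had one (75%, against 58%). The remaining 10 members had no peak at an end or inside in either list (25% of the members, against 39.2% of coding genes). They were PPARA, NR1H4, RXRG, NR1I3, NR0B2, NR2F1, NR3C1, PGR, NR4A2 and NR4A3.

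Gene ends do not tell a start from a far end, so peaks were also placed against the transcription starts in the RefSeq promoter table, which holds 35 of the members. In lipid overload, 19 of these 35 had a peak within 1 kb of a listed start (54.3%, against 45.5% of the 15812 coding genes with a listed start). At equal list length the count was 9 (25.7%, against 27.8%). In mock, 4 had one (11.4%, against 14%): NR1D2, ESRRA, NR6A1 and NCOR1. A lipid-overload peak at the far end of the gene and not at its own start was found at 6 members (17.1%, against 5.25%): NR1H2, NR1H3, PPARD, RARA, RARG and NR4A1. At NR1H2 and NR1H3 that peak also lay at the start of a neighbouring coding gene, which was so for 1.52% of coding genes.

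The 4 member promoter windows whose overlapping peak has the most fragments, and a pair of liver receptor promoters without a peak, are shown so that base composition can be compared with the mark. Each runs from 250 bases before to 50 after the start on the strand of the gene (RefSeq, GRCh38.p14, the coordinates of hg38). Capitals mark the bases inside the lipid-overload peak. The only listed start of NR1H4, the one shown, lies inside the gene and not at its 5′ end.

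ESRRA, a regulator of mitochondrial energy genes (chr11:64305274-64305573, plus strand), RARA, a retinoic acid receptor (chr17:40317995-40318294, plus strand, a start inside the gene), NR1D1, a heme-bound repressor of the circadian clock (chr17:40100540-40100839, minus strand), PPARD (chr6:35342308-35342607, plus strand), HNF4A, the receptor that maintains hepatocyte identity (chr20:44400989-44401288, plus strand, the downstream start), and NR1H4 (chr12:100503110-100503409, plus strand) read:
ESRRA: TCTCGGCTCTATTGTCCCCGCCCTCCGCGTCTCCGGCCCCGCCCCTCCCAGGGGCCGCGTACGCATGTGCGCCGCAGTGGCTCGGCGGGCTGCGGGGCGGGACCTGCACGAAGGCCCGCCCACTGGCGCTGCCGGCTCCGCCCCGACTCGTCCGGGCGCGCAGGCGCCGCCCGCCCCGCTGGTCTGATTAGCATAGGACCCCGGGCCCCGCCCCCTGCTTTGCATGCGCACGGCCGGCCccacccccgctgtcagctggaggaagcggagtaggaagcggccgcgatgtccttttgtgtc
RARA: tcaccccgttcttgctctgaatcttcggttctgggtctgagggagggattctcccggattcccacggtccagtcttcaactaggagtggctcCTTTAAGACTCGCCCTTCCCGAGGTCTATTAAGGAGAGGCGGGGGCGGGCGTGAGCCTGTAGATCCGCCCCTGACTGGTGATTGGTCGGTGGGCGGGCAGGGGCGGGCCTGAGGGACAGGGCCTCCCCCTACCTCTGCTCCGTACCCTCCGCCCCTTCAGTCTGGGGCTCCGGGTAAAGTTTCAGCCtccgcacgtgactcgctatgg
NR1D1: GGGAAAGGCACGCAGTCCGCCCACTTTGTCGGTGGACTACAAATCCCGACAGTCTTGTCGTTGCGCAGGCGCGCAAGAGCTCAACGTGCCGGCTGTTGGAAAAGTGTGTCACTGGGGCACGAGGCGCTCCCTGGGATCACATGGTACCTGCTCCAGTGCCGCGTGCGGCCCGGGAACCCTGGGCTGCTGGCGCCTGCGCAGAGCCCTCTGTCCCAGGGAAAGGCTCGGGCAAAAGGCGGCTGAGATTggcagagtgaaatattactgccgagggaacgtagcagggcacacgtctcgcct
PPARD: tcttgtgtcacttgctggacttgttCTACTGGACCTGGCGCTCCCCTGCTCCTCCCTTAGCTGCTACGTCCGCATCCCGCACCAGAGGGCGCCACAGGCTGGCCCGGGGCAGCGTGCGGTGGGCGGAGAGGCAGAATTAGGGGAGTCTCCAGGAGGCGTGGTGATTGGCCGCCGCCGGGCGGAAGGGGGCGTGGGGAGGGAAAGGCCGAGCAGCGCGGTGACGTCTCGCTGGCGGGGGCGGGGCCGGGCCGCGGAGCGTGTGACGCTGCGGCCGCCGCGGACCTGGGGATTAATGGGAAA
HNF4A: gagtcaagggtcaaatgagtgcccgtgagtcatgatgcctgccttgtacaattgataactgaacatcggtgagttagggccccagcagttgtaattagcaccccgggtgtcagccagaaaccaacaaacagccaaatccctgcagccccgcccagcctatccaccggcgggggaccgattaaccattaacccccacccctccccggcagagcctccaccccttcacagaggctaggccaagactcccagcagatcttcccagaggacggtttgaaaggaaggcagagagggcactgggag
NR1H4: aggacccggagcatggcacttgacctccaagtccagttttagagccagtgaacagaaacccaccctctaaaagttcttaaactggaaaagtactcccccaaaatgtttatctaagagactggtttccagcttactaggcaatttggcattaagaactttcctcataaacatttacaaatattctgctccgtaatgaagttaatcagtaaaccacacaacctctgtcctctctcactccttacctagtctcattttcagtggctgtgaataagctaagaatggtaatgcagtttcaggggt

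The first 4 windows held 39, 19, 24 and 31 CpG dinucleotides, and peaks covered 239, 187, 247 and 275 of their 300 bases. The windows of HNF4A and NR1H4 held 9 and 2 CpG and no base under a peak. Those of PPARA, a liver receptor likewise without a peak and not shown, held 52 each. Over all 76 listed windows of the 35 members, 15 overlapped a lipid-overload peak (19.7%, in 14 genes), against 31.5% of 22132 coding windows, and 3 overlapped a mock peak (3.95%, against 8.67%). A gene can list several windows, so these shares depend on the number of listed starts per gene. Counted by gene, a window was covered in lipid overload at 14 of 35 members and at 6037 of 15812 coding genes, so no deficit in members is read from the window shares. The median covered member window had 26 CpG and an observed over expected CpG ratio of 0.886, whereas the median uncovered one had 12 CpG and a ratio of 0.540. The same contrast held over all coding windows, at 28 CpG and 0.870 for covered and 13 CpG and 0.573 for uncovered windows.

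Windows rich in CpG were not all marked. With a ratio of at least 0.6, 13 of 40 member windows were covered (32.5%, against 46.8% of coding windows). Below it 2 of 36 were (5.56%, against 6.31%), those of RARG and NR1H3. The 40 windows came from 29 genes, and the 13768 coding windows of that class from 11113. These shares too depend on the number of listed starts per gene, so no deficit in members is read from them. CpG-rich windows without a lipid-overload peak included the first start of RXRA with 65 CpG, both starts of PPARA with 52 CpG each, a start of the glucocorticoid receptor NR3C1 with 51, NR2C2 with 48, the thyroid hormone receptor THRA with 46 and NR4A3 with 38. At NR2C2 the peaks lay downstream, 557 and 901 bp past the start. Windows share bases where starts lie close together, so they are not independent.

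**Figure D3:**
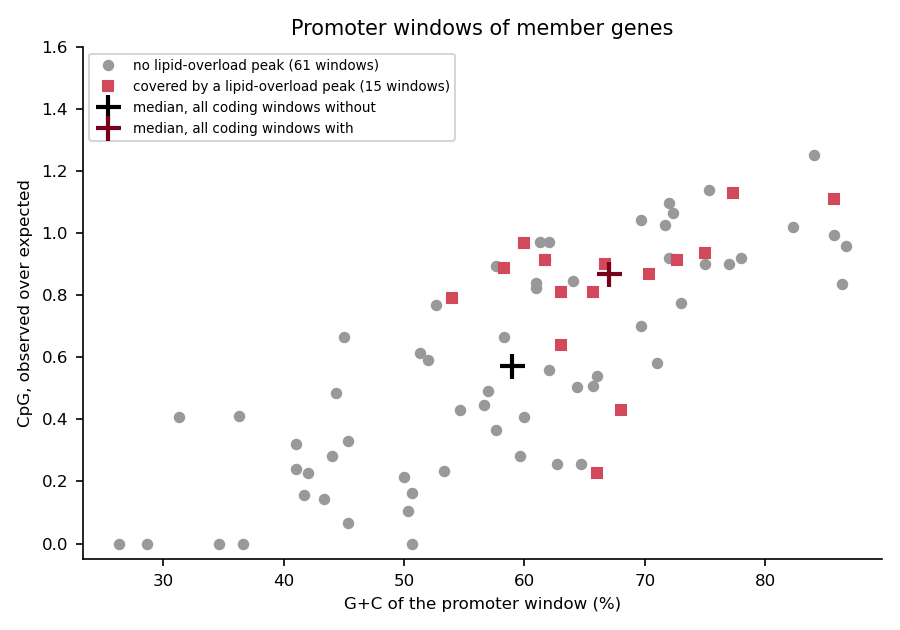
G+C content (%) against the observed over expected CpG ratio of the 76 promoter windows listed for 35 members, by whether a lipid-overload peak overlaps them. Crosses are the medians of all coding windows with and without such a peak. Of the 15 covered windows, 13 have a ratio of at least 0.6.

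The receptor core motif AGGTCA, to which many nuclear receptors bind, was searched on both strands and occurred in 8 of the 76 member windows (10.5%, against 11.9% of all coding windows) and in 0 of the 15 covered ones (9.49% of covered coding windows, a share at which 0 of 15 is no result). The window of NR1H4 shown above has one at position 21. Its direct repeats AGGTCANAGGTCA and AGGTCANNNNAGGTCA occurred in 5 and 2 of all coding windows, and the inverted repeat AGGTCANTGACCT in none. No member window held any of these repeats. The GC box GGGCGG, a binding site of SP factors, lay in 10 of the 15 covered member windows (66.7%) and in 57.9% of all member windows, beside 79.3% and 56.3% for coding windows. ESRRA held 8 GC boxes, RARA 5, PPARD 3 and NR1D1 1; a CpG in a GC box counts in both tallies. TATAAA was present in 10.5% of member and 9.46% of coding windows, and the E-box CACGTG in 9.21% and 8.34%. A match to these letters is a description of the window only.

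Receptors for fatty acids, oxysterols and bile acids (PPARA, PPARD, PPARG, NR1H2, NR1H3 and NR1H4) were set against the other 34 members. In lipid overload 3 of the 6 had a gene-end peak (50%) and 16 of the other 34 did (47.1%). In mock the counts were 1 of 6 and 4 of 34. An internal peak in lipid overload lay in 3 of the 6 (50%) and in 19 of the other 34 (55.9%), and in mock in 1 of 6 and 11 of 34. A peak at a listed start in lipid overload was found at 4 of the 6 and at 15 of the 29 others with a listed start (51.7%). A far-end peak in lipid overload was found at 3 of the 6 (50%; NR1H2, NR1H3 and PPARD) and at 3 of the 29 others (10.3%), and those of NR1H2 and NR1H3 lay at the start of a neighbour. At equal list length the gene-end counts were 3 of 6 (50%) and 10 of 34 (29.4%). With 6 genes in the smaller group, 1 gene moves its share by a large step, and no difference between the groups was tested. A broad lipid-sensing group added VDR, NR1I2, NR1I3, HNF4A, NR5A2, RXRA, RXRB and RXRG. Left outside it were RARA and RARG, both marked at a gene end in lipid overload, and the steroid receptors, none of them marked there. Of the broad group, the lipid-overload list marked 5 of 14 at a gene end (35.7%), against 14 of the remaining 26 (53.8%). These shares depend on which receptors are placed in the group.

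PPARD, a receptor active in fatty acid oxidation in many tissues, had the start peak with most fragments among these 6. In lipid overload 21 fragments (95% interval 13.0 to 32.1) lay at chr6:35342333-35342670, with the summit 100 bp before the start and a fold of 11.1 over local background. A far-end peak held 10 fragments (chr6:35427567-35427837) and an internal one 5. In mock PPARD had only an internal peak of 3 fragments, at another place in the gene. Divided by the depth ratio, the 21 fragments at the start correspond to 8.00 at mock depth, where listing would have needed 4.

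NR1H3 carried the highest gene-end peak of the whole set, but at its far end. In mock it held 14 fragments (7.65 to 23.5, chr11:47269985-47270226). After lipid overload it held 49 (36.3 to 64.8, chr11:47269425-47270257), which ranks in the top 1.18% of that list. Both summits lay 1016 bp past the 3′ end of NR1H3, at the start of MADD, and with peaks placed by their summits 2 of the 6 lipid-sensing receptors had a gene-end peak. A second NR1H3 peak of 12 fragments lay inside the gene at chr11:47257879-47258003, 64 bp before one of its listed starts. NR1H2 resembled NR1H3: its far-end peak of 25 fragments (16.2 to 36.9, chr19:50384080-50384525) lay at the start of POLD1, and its own start had 10 (4.80 to 18.4, chr19:50376790-50376954). Neither NR1H2 peak had a mock counterpart.

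PPARG, which drives fat storage, had 1 lipid-overload peak of 5 fragments (chr3:12288424-12288626), 582 bp before its second start. PPARA, the main fatty acid receptor of liver, and NR1H4 had none at all. The nearest lipid-overload peak outside the gene was 6.54 kb from PPARA and 204 kb from NR1H4.

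RXRA was the member with most internal peaks. It held 10 in lipid overload, of 10 to 25 fragments, over a gene of 114 kb (chr9:134326455-134440585). That number was reached by 61 of all coding genes (0.308%), which were not matched to RXRA in length. In mock RXRA held 3, of 12, 13 and 17 fragments, and each of them overlapped a lipid-overload peak, of 23, 25 and 23 fragments. A pair of these summits coincided to the base in both libraries. Local background at each RXRA peak in lipid overload exceeded the list median of 0.741 fragments and reached 4.23, and its part in the number of peaks was not tested. One RXRA peak, of 18 fragments, lay 951 bp past the second start and near the end of MIR4669. RXRB had 11 fragments (5.49 to 19.7) at its start, which it shares with SLC39A7 (chr6:33200707-33200846), and RXRG had no peak.

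HNF4A and NR5A2, liver transcription factors that can hold fatty acids or phospholipids, had internal peaks only. HNF4A held 4 in lipid overload, of 8, 12, 16 and 9 fragments from the 5′ end onwards, and 1 of 4 fragments in mock near the 3′ end. The peak of 16 fragments (9.15 to 26.0, chr20:44407504-44407687) lay at the end of MIR3646, a miRNA gene. No HNF4A peak was shared between the lists. NR5A2 had 1 mock peak of 5 fragments and lipid-overload peaks of 5 and 4, also none shared. The xenobiotic receptor NR1I2 had 1 internal lipid-overload peak of 12 fragments (chr3:119795204-119795399), and its relative NR1I3 had none. NR0B2, a receptor without a DNA-binding domain that represses bile acid synthesis, had none either, although 14 lipid-overload peaks lay within 100 kb of it.

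The receptors most associated with hepatocyte function (NR0B2, NR1H4, NR1I2, NR1I3, HNF4A, NR5A2 and PPARA, grouped after their values were seen) had no gene-end peak in either list, a count that the choice of genes fixes and from which nothing is read. Internal peaks were listed in 2 of these 7 in mock (28.6%, against 12.8% of all coding genes). In lipid overload they were listed in 3 (42.9%, against 27.8%). The 7 genes had a median length of 78.9 kb, against 24.5 kb, and nothing is read from these shares either.

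**Figure D4:**
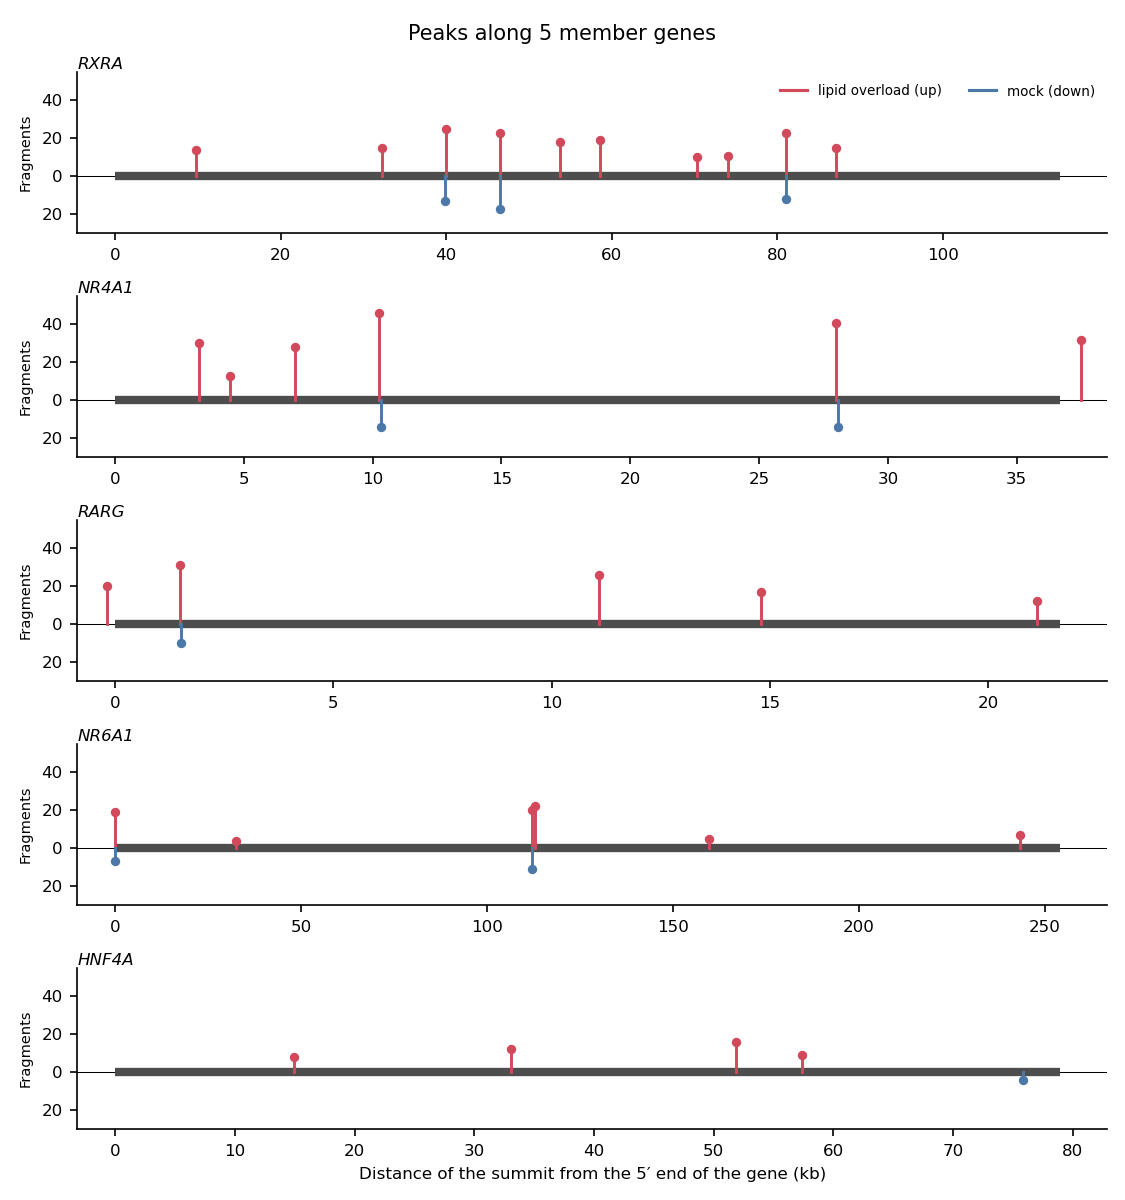
Peak summits along 5 members by distance from the 5′ end (kb), with fragments over the summit drawn upward for lipid overload and downward for mock. The grey bar is the gene. At RXRA, NR4A1, RARG and NR6A1 the mock summits each have a lipid-overload summit beside them, whereas the mock summit of HNF4A has none.

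Receptors for thyroid hormone, retinoic acid and vitamin D were marked at their ends in 4 of 5 cases in lipid overload and in 0 of 5 in mock (43.4% and 13.4% of all coding genes). RARA had 29 fragments (19.4 to 41.6, chr17:40318087-40318273) at its second start, the start whose promoter is shown above, with the summit 45 bp before it. Its other lipid-overload peaks held 10, 11 and 13 fragments inside and 10 at the far end, and RARA had no mock peak. At mock depth the peak of 29 fragments corresponds to 11.1, where 6 would have been needed. RARG had 20 fragments at its start (12.2 to 30.9, chr12:53232305-53232451), 12 at its far end and internal peaks of 31, 26 and 17. The peak of 31 fragments lay 1487 bp inside the gene, where mock had 10.

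VDR, the vitamin D receptor, had 18 fragments at one end (10.7 to 28.4, chr12:47905032-47905193) and a mock peak of 5 inside the gene. THRB, a thyroid hormone receptor, had 3 internal mock peaks of 3 fragments each, none of them listed in lipid overload, and a start peak of 6 fragments (2.20 to 13.1, chr3:24495478-24495723) in lipid overload only. THRA had internal peaks only, of 12 fragments in mock and of 19 and 13 in lipid overload.

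The 2 heme receptors NR1D1 and NR1D2, repressors in the circadian clock, both had a peak at a start in lipid overload (45.5% of coding genes with a listed start). NR1D1 had 22 fragments at its start (13.8 to 33.3, chr17:40100593-40100911) and 39 inside, 1480 bp downstream (27.7 to 53.3, chr17:40099067-40099492, top 2.90% of the list). Mock listed only the downstream peak, with 10 fragments (4.80 to 18.4). At its second start, which adjoins NKIRAS1, NR1D2 had a mock peak of 8 fragments (3.45 to 15.8, chr3:23946094-23946474) and a lipid-overload peak of 18 (10.7 to 28.4). A second mock peak of NR1D2, of 3 fragments at the far end, was not listed in lipid overload.

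Orphan receptors, for which a natural ligand is not settled, were marked at a gene end in 5 of 7 cases in lipid overload and 2 of 7 in mock (43.4% and 13.4% of all coding genes). Upstream of its start ESRRA had 13 fragments in mock (6.92 to 22.2, chr11:64305047-64305325). The lipid-overload peak there held 32 (21.9 to 45.2, chr11:64305061-64305512), and another of 22 lay further upstream (chr11:64304317-64304526). Both places lie by the ends of CATSPERZ and KCNK4-CATSPERZ. NR6A1, expressed mainly in germ cells and early embryos, had a start peak of 7 fragments in mock (2.81 to 14.4, chr9:124771126-124771325) that held 19 after lipid overload (11.4 to 29.7, chr9:124771113-124771718). Among its 5 internal lipid-overload peaks, those of 22 and 20 fragments lay by MIR181A2HG, a noncoding host gene of miRNAs, and mock had 11 there.

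NR2C2 had 13 and 23 fragments past its start in lipid overload (chr3:14948006-14948180 and chr3:14948404-14948656), which also adjoin FGD5-AS1. NR2F6 had 22 at one end (13.8 to 33.3, chr19:17245985-17246262) and 12 inside. NR2C1 had 7 at its start (chr12:95073576-95073748), and NR2F2 had 7 inside the gene, 754 bp past a listed start. None of these 4 genes had a mock peak, and NR2F1 had no peak in either list.

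Among the immediate-early NR4A receptors, NR4A1 held peaks and NR4A2 and NR4A3 held none. NR4A1 had 5 internal peaks in lipid overload, of 30, 13, 28, 46 and 41 fragments from the 5′ end onwards, in 36.7 kb (chr12:52022832-52059503). At least 5 internal peaks were found in 1.98% of all coding genes, in 0.184% of those under 50 kb, and in 3 members (7.5%: RXRA, NR4A1 and NR6A1). In mock NR4A1 had 2 internal peaks of 14 fragments each (7.65 to 23.5), at the places of the lipid-overload peaks of 46 (33.7 to 61.4, chr12:52033018-52033226) and 41 fragments. A gene-end peak of 32 fragments (21.9 to 45.2, chr12:52060230-52060509) lay past the 3′ end, by NR4A1AS, on a local background of 6.57. NR4A1 stood in a dense stretch, with 15 lipid-overload peaks and 1 mock peak in the 100 kb on either side of it, where the median member had 3.5 and 1. The part of local background in these peaks was not tested.

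The 4 steroid receptor genes were all over 100 kb long. None of ESR1, NR3C1, NR3C2 and PGR had a gene-end peak (38.6% of coding genes over 100 kb in lipid overload, 10.8% in mock). None had a mock peak at an end or inside (38.5% of those coding genes). In lipid overload ESR1 had 1 internal peak of 7 fragments and NR3C2 1 of 6, in genes of 473 and 367 kb. The share with an internal lipid-overload peak was thus 50%, against 50.8% of coding genes over 100 kb. The nearest mock peak outside the gene was 95.1 kb away for PGR and between 236 and 266 kb for the other 3.

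Coregulators were marked at a gene end in 3 of 5 cases in lipid overload and 1 of 5 in mock, shares near the 43.4% and 13.4% of all coding genes for so few genes. At the start of NCOR1, the corepressor that recruits histone deacetylase, the mock peak held 4 fragments (1.09 to 10.2, chr17:16214880-16215057). The lipid-overload peak there held 10 (4.80 to 18.4, chr17:16214868-16215557). The coactivators NCOA1 and NCOA3 had start peaks in lipid overload only, of 7 (chr2:24490955-24491209) and 13 fragments (chr20:47501625-47501965). Internal lipid-overload peaks held 8 fragments in NCOA1, 7 and 11 in NCOA2, and 5, 5 and 6 in NCOA3. PPARGC1A, a coactivator of mitochondrial and gluconeogenic genes that spans 681 kb, had 1 internal peak of 6 fragments in mock and 1 of 4 in lipid overload, at different places.

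Peaks found in both lists allow the conditions to be set side by side. Members held 23 mock peaks, of which 14 overlapped a lipid-overload peak (60.9%, against 45.8% of all mock peaks), and 76 lipid-overload peaks, of which 14 overlapped a mock peak (18.4%, against 14.3%). The 9 mock peaks without a counterpart held 3 to 6 fragments, with a median of 3. After division by the depth ratio, lipid overload over mock ran from 0.516 at an RXRA peak (0.264 to 1.03) to 1.49 at NR1D1 (0.729 to 3.34). The far-end peak of NR1H3 had 1.33 (0.725 to 2.62), and the NR4A1 peaks had 1.25 (0.676 to 2.47) and 1.12 (0.596 to 2.22). The median of the 14 was 0.945, 8 lay below 1, and all 14 intervals include 1, so that no ratio departed from 1 beyond counting error. The intervals are wide, up to 0.275 to 4.16 at NCOR1, and do not show equal occupancy. Only peaks listed in both libraries enter here, so a peak unlisted in either library could not appear. All 3914 mock peaks with a lipid-overload counterpart had a median of 0.848 and quartiles of 0.626 and 1.14.

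**Figure D5:**
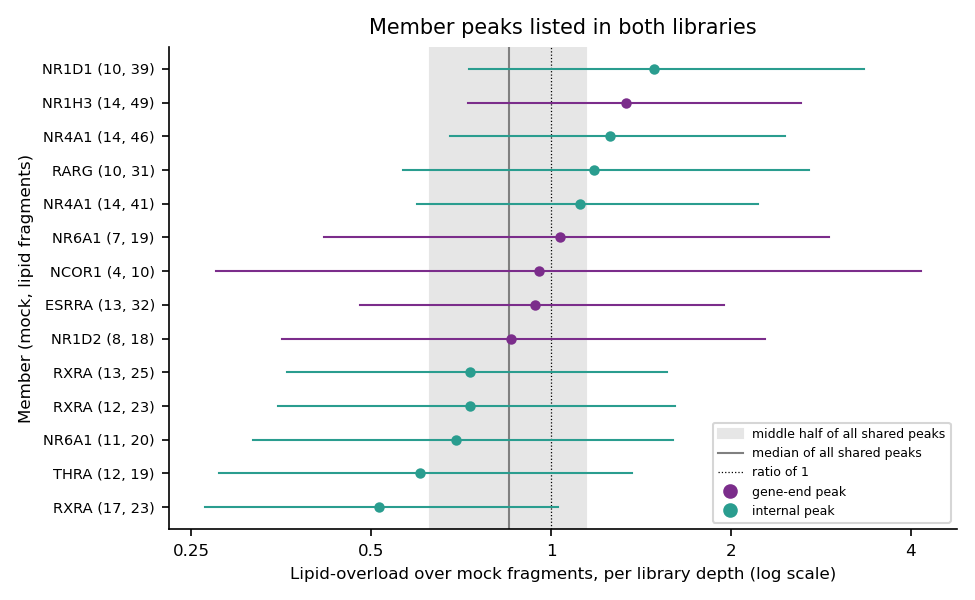
Ratio of lipid-overload to mock fragments per library depth (log scale) at the 14 member peaks listed in both libraries, with exact binomial 95% intervals covering counting error only; fragments in each library are in brackets. The grey band and line are the quartiles and median (0.848) of all 3914 such peaks. All 14 intervals cross 1.

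Lipid-overload peaks without a mock counterpart numbered 62 in members, with a median of 11.5 fragments beside 24 for the shared ones. For each, the fragments divided by 2.62 were compared with the number that the mock list would have needed at the same local background, likewise scaled. Of the 62, 20 reached that number (32.3%, against 23.8% of all 23400 unshared lipid-overload peaks). Of the 19 at gene ends, 10 did (52.6%, against 42.6%). Among the 14 members marked at a gene end in lipid overload only, 9 had such a peak: PPARD, NR1H2, RARG, VDR, NR1D1, NR2C2, NR2F6, NR4A1 and NCOA3. The gene-end peaks of THRB, RARA, RXRB, NR2C1 and NCOA1 did not reach it. At RXRA, 0 of the 7 unshared peaks reached it. Counting error was left out of this comparison. Among the 9 members, margins ran from 8.38 against 8 needed at NR1D1 to 8.00 against 4 at PPARD. The peaks were also picked for lacking a mock counterpart, so whether depth alone accounts for them was not tested.

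Outside the genes, the nearest peak lay at a median of 58.0 kb from a member in mock, against 75.8 kb for all coding genes, and at 14.1 kb in lipid overload, against 21.5 kb. At equal list length the lipid-overload median was 29.4 kb, against 67.7 kb for all coding genes. With a −log10 q of at least 5 the mock median was 252 kb, against 597 kb. The distances ran from 3.71 kb at RXRB to 2552 kb at NR4A2 in mock. The nearest lipid-overload peak to NR4A2 was 8.89 kb away. For the lipid-sensing receptors the medians were 53.2 kb in mock and 27.2 kb in lipid overload, and for the other members 58.0 and 10.9 kb.

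Other genes of the same pathway were counted by gene-end peaks, list by list. The shares of all coding genes to read them against are 13.4% in mock and 43.4% in lipid overload. Of 16 further coregulators, the mock list marked 4 (25%) and the lipid-overload list 10 (62.5%). CARM1, an arginine methyltransferase coactivator, was marked in both lists, with 12 mock fragments (6.20 to 21.0) and 49 after lipid overload (36.3 to 64.8). NCOA4 had 5 and 24 fragments, the acetyltransferase EP300 5 and 17, and PRMT1 18 in lipid overload only. NCOA6, named after its values were seen as the remaining one marked in both lists, had 8 and 15. These are raw fragments from libraries that differ 2.62 times in depth. Of 13 further nuclear receptors, the mock list marked 0 and the lipid-overload list 4 (30.8%), among them ESR2 with 17 fragments, NR5A1 with 10 and HNF4G with 8. A further list held 20 target genes of the lipid-sensing receptors or, for CYP2B6 and CYP3A4, of the xenobiotic receptors. Of these 20, the mock list marked 0 and the lipid-overload list 5 (25%). Among the 5 were SREBF1 with 16 fragments, MYLIP with 9 and CYP2B6 with 6. SREBF1 encodes the lipogenic factor that liver X receptors induce.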

How the data were processed

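γH2AX CUT&Tag libraries of mock-treated and lipid-overloaded HepG2 cells were read from 2 deposited peak lists, 1 per library. The build is hg38 and the tools named are MACS2 2.1.2, BWA, deepTools and FastQC, per the submitters' processing notes. The sources used here give neither their settings nor the role of the IgG libraries in calling. Each deposited peak carries the authors' score, fold (a linear ratio) and −log10 p and q, which were used only inside 1 list at a time.

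Fold and −log10 p were solved together for fragments over the summit and local background, under the MACS2 formulas. A whole fragment number reproduced log10 p within 0.0001 for 100% of mock and 99.989% of lipid-overload peaks. The step was tested on simulated data. Depth was taken as genome background over fragment length (mock: 0.121 fragments, 137 bp; lipid overload: 0.289 fragments, 124 bp). Fragment intervals are exact Poisson, ratio intervals exact binomial. PCR copies are not independent molecules (14 cycles, per the labels).

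Genes came from the RefSeq table of GRCh38.p14, without strand: 718 of 59792 (171 coding) break their chromosome's order by over 1 Mb and were set aside. Starts, strand and sequences came from the RefSeq promoter table, which matched 35 of 40 members. Exons and introns were not used here. Peaks sharing at least 1 bp were called overlapping. The members and lists were chosen with earlier results of these data known. Values are given for members with a gene-end peak and for those with most internal peaks, neighbours where a member's peak reaches their ends, and up to 4 genes per further list. Some genes of these further lists are not reported here. The comparison of unshared peaks with mock depth, whose lowest deposited −log10 p was 4.27, and the counts at starts under the alternatives were chosen after seeing the data. Python 3.11.15, numpy 2.4.6, scipy 1.17.1, pandas 2.3.3 and matplotlib 3.10.9 were used.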

Additional observations from a re-analysis of the deposited data

How the results depend on the processing

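Of 77 recomputed values, 58 stayed close to the reported one (counts within 1.5 times, median distances within the 95% interval of that median over members) and 19 did not. With the broad lipid-sensing group, 5 of 14 had a lipid-overload gene-end peak. With gene ends of 3 kb, 8 members had a mock gene-end peak, and with 500 bp, 3. With a −log10 q of at least 5, gene-end peaks were left at 3 members in mock and at 10 of the other members in lipid overload, internal peaks at 5 in mock and 12 in lipid overload, and start peaks at 2 and 9; the median outside distance was 252 kb in mock and 28.5 kb in lipid overload. With a fold of at least 5, 14 members had an internal lipid-overload peak and the mock distance was 199 kb. At equal list length, 9 members were marked at a gene end in lipid overload only, 10 of the other members had a gene-end peak, 11 members an internal and 9 a start peak in lipid overload, and the distance was 29.4 kb. With lipid-overload peaks of at least 8 fragments, 13 had an internal one. Gene-end peaks in lipid overload ran from 13 to 24 members over these settings, and the lipid-sensing 6 from 2 to 4. Distances were not recomputed with peaks placed by summit. No paired analysis was possible because each condition holds 1 sample. Depth limits peaks near the minimum of 3 fragments in mock and 4 in lipid overload.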

Other observations

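Several internal member peaks lay at noncoding genes inside the member. Besides MIR3646 in HNF4A, MIR4669 in RXRA and MIR181A2HG in NR6A1, the NR4A1 peaks of 46 and 41 fragments lay by the uncharacterised genes LOC124902934 and LOC107984510, and a peak of 4 fragments in NR5A2 lay by LOC100420255. Local background was higher at member peaks than over each whole list, with a median of 1.51 fragments beside 0.741 in lipid overload and 0.465 beside 0.287 in mock.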
